A study of Mus musculus with 24 samples.

Results

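GDNF-family and neurotrophin receptors, with the neurotrophins BDNF and NT-3, were followed in mouse otocyst epithelium during the induced expression of a decoy for FGF signalling. The 9 genes are Gfra1, Gfra2, Gfra3, Ret, Ntrk2, Ntrk3, Ngfr, Bdnf and Ntf3, out of 15736 genes in the deposited count table, and all 9 had a row. They were chosen by function and because Gfra3 was strongly higher after 24 h of doxycycline begun at E9.25, so their values in that exposure are given as a description with no test. The otocyst is the epithelial vesicle that forms the inner ear.

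Every embryo carried Rosa26rtTA/+, the doxycycline-dependent activator driven from the broadly active Rosa26 locus, and was exposed to doxycycline. Embryos labelled con carried nothing further, and embryos labelled R2b also carried Tg(tetO-s(dn)Fgfr2b)/+, which encodes a soluble dominant-negative FGFR2b that binds FGFs outside the cell. Pregnant females received 1.5 mg/kg doxycycline by injection and then chow with 200 mg/kg, for 12 h from E9.75 (E9.75+12h), 24 h from E9.25 (E9.25+24h) or 24 h from E10.25 (E10.25+24h). Otocysts were thus taken at E10.25 in the first 2 exposures and at E11.25 in the third, and the epithelia of each litter were pooled by genotype, giving 1 con and 1 R2b library per pregnant female. Counts were analysed for 3, 4 and 4 litters, 22 libraries in all, of 18.68 to 28.24 M counts each. Because the activator is not confined to the ear, the decoy could act outside the otocyst as well. In these bulk pools, fewer cells of a type and less RNA per cell cannot be told apart.

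GDNF-family ligands bind a GPI-anchored co-receptor of the GFRα family on the cell surface, and the complex signals through the receptor tyrosine kinase RET. Neurotrophins bind the Trk kinases, BDNF acting through TrkB (Ntrk2) and NT-3 mainly through TrkC (Ntrk3), and all neurotrophins also bind p75 (Ngfr), which has no kinase. In the developing inner ear, BDNF and NT-3 from the epithelium keep alive the sensory neurons that leave the otocyst and carry TrkB and TrkC.

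The neurotrophin receptor genes Ngfr and Ntrk2 changed in opposite directions in the test at E9.75+12h below. They passed there in 11 and 9 of 18 alternative settings, and in 0 and 2 of 24 at E10.25+24h. Each has a single start in the RefSeq promoter table for GRCm38.p6, so the 200 bases that end 50 bases before that start are shown for both. The Ngfr window is chr11:95587749-95587948 on the minus strand, and the Ntrk2 window is chr13:58806319-58806518 on the plus strand. Capitals mark a match to CCGGAA on either strand, the core bound by ETS factors, the family to which the FGF target ETV5 belongs.
Ngfr: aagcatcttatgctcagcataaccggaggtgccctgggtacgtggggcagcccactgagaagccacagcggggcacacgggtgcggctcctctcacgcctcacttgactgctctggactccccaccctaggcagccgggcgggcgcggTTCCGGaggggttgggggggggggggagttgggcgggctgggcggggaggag
Ntrk2: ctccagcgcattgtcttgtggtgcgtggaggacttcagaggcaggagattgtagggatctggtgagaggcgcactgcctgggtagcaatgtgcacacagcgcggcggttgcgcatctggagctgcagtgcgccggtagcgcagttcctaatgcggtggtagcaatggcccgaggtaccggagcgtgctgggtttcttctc
The match in Ngfr lies on the minus-strand reading as TTCCGG, and the Ntrk2 window had none. Of 32851 windows of this length in the table, 8.03% held CCGGAA, 5.57% held TGANTCA (AP-1) and 0.83% held TGACGTCA (CRE), both strands searched and no motif containing another. Among the 5 of the 9 genes analysed here, the window of Gfra1 also held CCGGAA and 1 of 7 Bdnf windows held TGANTCA; those of Ntf3 held none of them. Gfra2, Gfra3, Ret and Ntrk3 were not analysed here for sequence. A match is a run of letters and does not show binding.

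On GRCm38 with the GENCODE M21 annotation, the genes lie apart on 8 chromosomes, with Ret and Ntf3 both on chromosome 6. The co-receptor genes are Gfra1 (ENSMUSG00000025089, chr19:58235604-58455909, minus strand), Gfra2 (ENSMUSG00000022103, chr14:70890120-70979838, plus strand) and Gfra3 (ENSMUSG00000024366, chr18:34689898-34720387, minus strand). Ret (ENSMUSG00000030110) spans chr6:118151745-118197718 on the minus strand. The neurotrophin receptor genes are Ntrk2 (ENSMUSG00000055254, chr13:58806569-59133970, plus strand), Ntrk3 (ENSMUSG00000059146, chr7:78175959-78738012, minus strand) and Ngfr (ENSMUSG00000000120, chr11:95568818-95587735, minus strand). The ligand genes are Bdnf (ENSMUSG00000048482, chr2:109674700-109727007, plus strand) and Ntf3 (ENSMUSG00000049107, chr6:126101412-126166910, minus strand). Annotated antisense genes overlap Gfra1, Bdnf, Ntrk2 and Ntrk3. The libraries were stranded, but whether the counting used strand is not given in the sources used here, so reads of these 4 genes and their antisense partners may not be separated.

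The genotype labels were checked on the reads of the decoy, which falls on Fgfr2 and, through its immunoglobulin part, on Ighg1. At E9.75+12h and E9.25+24h, Ighg1 was at most 1.99 CPM (counts per M counts, after library scaling) in libraries labelled con and at least 1025 CPM in those labelled R2b. At E10.25+24h the decoy reads went against the labels in litter 1, where the library labelled con had 679 CPM of Ighg1 and the one labelled R2b 54.7 CPM. The library labelled con of litter 3 had 201 CPM, against 1.42 and 0.736 CPM in litters 2 and 4, and the other 3 libraries labelled R2b had 817 to 1155 CPM. Etv5, a transcriptional target of FGF signalling, was at 17.2 CPM in the library labelled con of litter 1 and at 107 CPM in the one labelled R2b, the reverse of litter 2 with 110 and 24.4 CPM. Groups were kept as labelled, and the E10.25+24h results are given with and without these litters.

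Before the changes, the order of levels in the con libraries was set out per kb of exon, since raw CPM depends on transcript length. At E9.75+12h, Gfra1 was the most abundant at 29.8 ± 2.51 CPM per kb (SD, n = 3). Ntf3 at 12.7 ± 2.54, Ngfr at 12.0 ± 1.53 and Gfra3 at 11.5 ± 2.66 CPM per kb followed, and the ranges of neighbours in that order overlapped. Bdnf stood at 5.96 ± 0.669 CPM per kb, below all 4. Gfra2 at 1.74 ± 0.472 and Ntrk2 at 1.67 ± 0.373 CPM per kb overlapped. Ret, the shared signalling receptor, was at 0.788 ± 0.0635 CPM per kb, far below its co-receptor Gfra1, and Ntrk3 was lowest at 0.0434 ± 0.00615 CPM per kb. The exon lengths are the union of all annotated isoforms, 19.292 kb for Ntrk2 and 30.17 kb for Ntrk3, which lowers their values on this scale. Gfra1 stayed first and Ret and Ntrk3 last in the con libraries of the other exposures. Levels in different exposures cannot be told apart from the series of library numbers, because the libraries of each exposure were numbered under a prefix of their own.

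**Figure D1:**
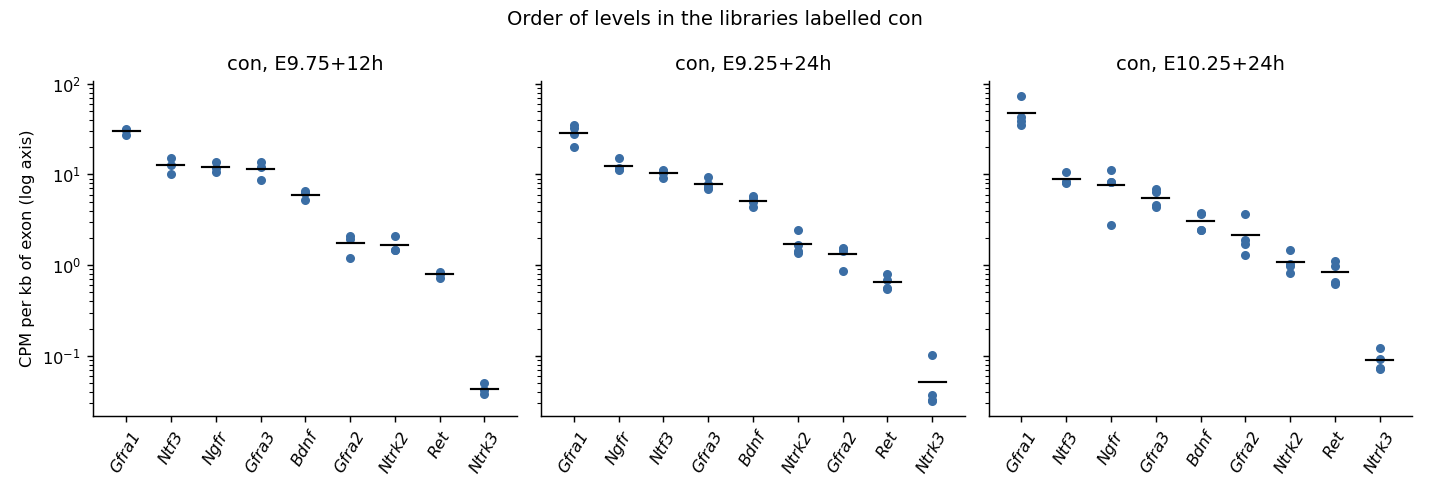
Levels of the 9 genes in libraries labelled con, as CPM per kb of exon on a log axis, for each exposure; points are libraries and bars are group means. Gfra1 is highest and Ntrk3 lowest in every panel, and at E10.25+24h the high Gfra1 point and the low Ngfr point are both litter 1.

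In the 12 h exposure, a contrast that the choice by Gfra3 did not use, Gfra2, Gfra3, Ret, Bdnf and Ntrk2 rose in R2b and Ngfr fell. That is 6 of 9 genes at a false discovery rate (FDR) under 0.05 in edgeR's quasi-likelihood test, 5 of them upward, where 19.98% of the 14882 genes tested passed, 10.20% upward and 9.78% downward. With the litter as a block the same 6 passed, against 11.93% of all genes. The 6 include Gfra3, and the genes were chosen with earlier results of these data known. This exposure also shares the decoy and the end age, E10.25, with the one used for the choice. The count is therefore not independent of that choice. Without the block, the median log2 fold change of all 9 genes was 0.63, beside 0.01 over all genes tested. R2b was above con in every library for Gfra2, Gfra3, Ret and Bdnf and below it for Ngfr, 5 of 9 genes, where the groups of 39.15% of all genes did not overlap, 18.22% with R2b above and 20.93% below. The replicates are pools from different pregnant females, and the p-values measure the spread between those pools.

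Among the co-receptors, Gfra3, which binds artemin, was at 24.1, 17.1 and 27.5 CPM in the con libraries of litters 1 to 3 and at 53.8, 44.3 and 59.1 CPM in R2b. The lowest R2b library was above the highest con library, and the log2 fold change was 1.22 (SE 0.172, FDR 0.00125), a 2.32-fold rise. Gfra2, the neurturin co-receptor, was at 7.37, 6.83 and 4.25 CPM in con and 13.4, 13.8 and 17.3 CPM in R2b. The groups were again apart, by 1.29 on the log2 scale (SE 0.218, FDR 0.00286). Gfra3 and Gfra2 kept their calls in all 18 alternative settings of this exposure, with log2 fold changes of 1.04 to 1.35 and of 0.95 to 1.53.

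Gfra1, which binds GDNF and is the most abundant of the co-receptors, was at 174, 168 and 148 CPM in con and 163, 190 and 201 CPM in R2b. Its groups overlapped, and the log2 fold change of 0.20 (SE 0.108, FDR 0.208) did not pass. Ret was at 5.75, 4.89 and 5.35 CPM in con and 7.58, 9.76 and 11.6 CPM in R2b, a rise of 0.88 on the log2 scale (SE 0.202, FDR 0.0124). Every R2b library of Ret was above every con library, but its level per kb in R2b, 1.43 ± 0.299, remained below that of Gfra3 in R2b, 26.2 ± 3.75 CPM per kb. The call for Ret held in 11 of 18 settings; it was lost without litter 1 (FDR 0.0519), without litter 3 (FDR 0.0928), without the R2b library of litter 3 (FDR 0.0560) and without the con library of litter 2 (FDR 0.0505).

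The neurotrophin receptors split. Ngfr was at 37.0, 40.2 and 47.3 CPM in con and 31.3, 17.4 and 30.0 CPM in R2b. Each R2b library was below each con library, and Ngfr fell by 0.64 on the log2 scale (SE 0.197, FDR 0.0416). This call held in 11 of 18 settings and was lost without litter 1 (FDR 0.0963), without litter 3 (FDR 0.0764), and without the con library of litter 1 (FDR 0.0776), 2 (FDR 0.0904) or 3 (FDR 0.108), the log2 fold change staying below 0 throughout.

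Ntrk2, encoding TrkB, was at 28.0, 28.1 and 40.5 CPM in con and 38.9, 46.4 and 49.3 CPM in R2b. R2b was the higher library in each litter, but the con library of litter 3 overlapped the R2b range, and the rise of 0.50 on the log2 scale (SE 0.157, FDR 0.0439) held in 9 of 18 settings. It was lost without litter 1 (FDR 0.197), without litter 2 (FDR 0.156), without the R2b library of litter 1 (FDR 0.0579), 2 (FDR 0.0590) or 3 (FDR 0.135), and without the con library of litter 1 (FDR 0.162) or 2 (FDR 0.151). Ntrk3, encoding TrkC, was near 1 CPM, at 1.52, 1.25 and 1.16 CPM in con and 2.44, 0.964 and 2.64 CPM in R2b. Its groups overlapped and its log2 fold change was 0.63 (SE 0.402, FDR 0.287).

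The ligands of these receptors also differed from each other. Bdnf, the TrkB ligand, was at 32.4, 38.4 and 40.3 CPM in con and 70.2, 89.0 and 51.3 CPM in R2b. All R2b libraries were above all con libraries, and Bdnf rose by 0.95 on the log2 scale (SE 0.175, FDR 0.00455); without litter 1 it did not pass (log2 fold change 0.86, FDR 0.0889). Ntf3, encoding NT-3, was at 26.2, 21.5 and 17.5 CPM in con and 17.3, 20.5 and 17.4 CPM in R2b, with overlapping groups and a log2 fold change of -0.22 (SE 0.166, FDR 0.372).

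**Figure D2:**
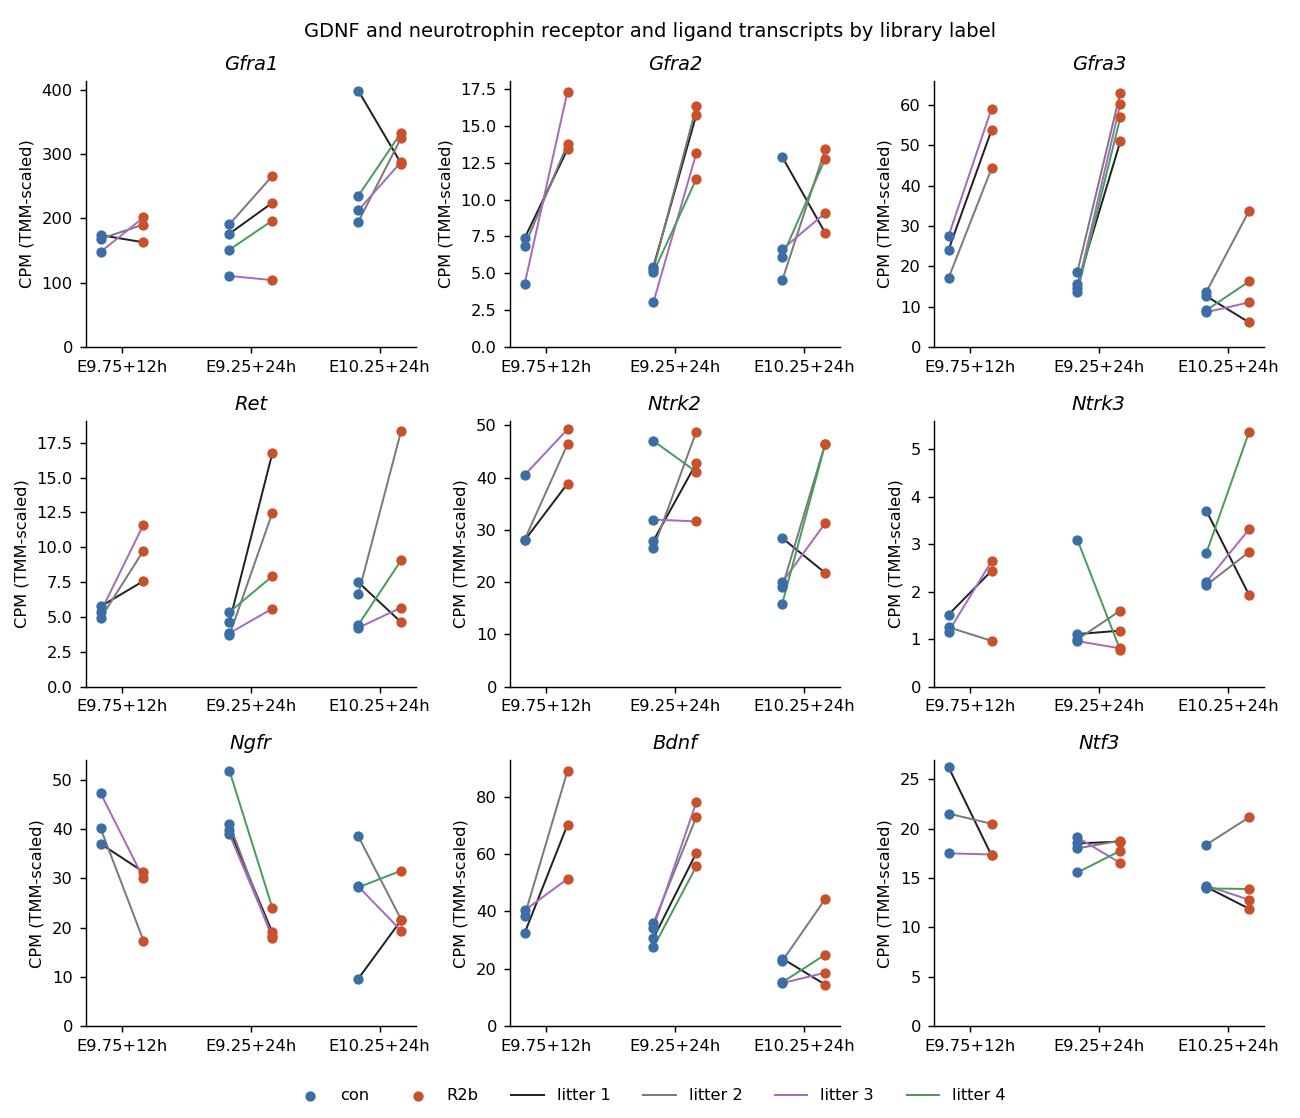
CPM of each gene in every library, by exposure, with con in blue and R2b in red as labelled and lines joining the libraries of a litter. In the first 2 exposures Gfra2, Gfra3, Ret and Bdnf are higher and Ngfr is lower in every R2b library, while at E10.25+24h the line of litter 1 runs against those of the other litters for most genes.

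Markers of the cells an otocyst pool can hold were read beside these changes. The summed level of 12 otic neuroblast and neuron markers was 327 to 379 CPM in con and 485 to 552 CPM in R2b at E9.75+12h, with none at 0. Of the 12, 7 rose (median log2 fold change 0.65), where 10.20% of all genes rose and 9.78% fell. Without litter 1, 2 of the 12 rose (median 0.66), where 252 of all 14878 genes rose. Summed neural crest and glia markers, of which 7 of 9 were analysed here and none was at 0, were 1207 to 1309 CPM in con and 1566 to 1752 CPM in R2b. Of the 6 tested, 2 rose, among them Sox10, which the otic epithelium itself also makes. The summed levels of both lists were higher in all R2b libraries than in all con libraries, and their part in the result was not tested. Of 9 otic epithelium markers, 3 rose and 1 fell, and they summed to 2023 CPM or more in every library of the series. None of the 8 mesenchyme and 5 tested blood markers passed at E9.75+12h. The 5 blood markers were all lower in R2b, with a median log2 fold change of -1.47 (-0.37 without litter 1). They summed to 7.11 to 299 CPM in con and 35.3 to 47.2 CPM in R2b. Only 2 of 7 hindbrain markers had a row, and they summed to at most 6.08 CPM in the series and 1.49 CPM at E9.75+12h. Of 5 tested endothelium markers 1 fell, Tek (log2 fold change -1.41, FDR 0.0159), and the list summed to 7.46 to 42.2 CPM in con and 7.92 to 25.7 CPM in R2b.

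In the 24 h exposure that ended at the same age, E9.25+24h, the values were as follows and carry no test, because this contrast chose the genes. Gfra3 was at 15.6, 18.7, 14.7 and 13.7 CPM in con and 51.0, 63.1, 60.3 and 56.9 CPM in R2b. The groups lay far apart, by 1.89 on the log2 scale, or 3.71-fold. Gfra2 was at 5.44, 5.27, 3.03 and 5.06 CPM in con and 15.8, 16.3, 13.2 and 11.4 CPM in R2b, a log2 difference of 1.60. Bdnf was at 30.6, 35.8, 34.3 and 27.5 CPM in con and 60.4, 72.9, 78.1 and 55.7 CPM in R2b, a log2 difference of 1.07. For both genes every R2b library was above every con library.

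Ret ranged more widely in R2b, with 16.7, 12.5, 5.59 and 7.92 CPM against 4.62, 3.68, 3.83 and 5.34 CPM in con, and the lowest R2b library stood just above the highest con library. Ngfr was lower in R2b, at 39.9, 41.1, 39.0 and 51.9 CPM in con and 19.0, 17.8, 18.3 and 24.0 CPM in R2b. The log2 differences of the 4 litters were -1.07, -1.20, -1.09 and -1.11, so R2b was lower by nearly the same ratio in each. Gfra1 and Ntrk2 had overlapping groups, with log2 differences of 0.34 and 0.31, or 0.295 and 0.321 with the litter as a block. Ntrk3 was at -0.49, which rested on the con library of litter 4 at 3.09 CPM and was 0.23 without that litter, and Ntf3 was at 0.02, with 15.6 to 19.1 CPM in con and 16.5 to 18.8 CPM in R2b.

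As a description, the groups of 5 of the 9 genes did not overlap, Gfra2, Gfra3, Ret and Bdnf above con and Ngfr below it, where those of 22.36% of 14979 genes did not. Summed neuroblast and neuron markers overlapped in this exposure, at 228 to 513 CPM in con and 243 to 265 CPM in R2b, and 0 of 12 passed (2 at an unadjusted p under 0.05; with the litter as a block 1 rose and 3 fell). The 513 CPM was the con library of litter 4, and the other con libraries were at 228 to 261 CPM. That library also had the highest mesenchyme, blood and endothelium sums of this exposure, at 755.5, 841.6 and 205.5 CPM. The R2b library of litter 4 had 697.6, 329.2 and 90.7 CPM. Summed neural crest and glia markers were 774 to 1059 CPM in con and 944 to 1168 CPM in R2b, with R2b the higher library in each of the 4 litters, and 2 of 6 tested rose (3 with the block). None of 6 endothelium markers passed (0 at an unadjusted p under 0.05), and 3 fell with the block. Over all 14979 genes, 2335 passed and 4829 had an unadjusted p under 0.05 by edgeR, and 6086 passed with the block. The part of these lists in the values above was not tested.

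**Figure D3:**
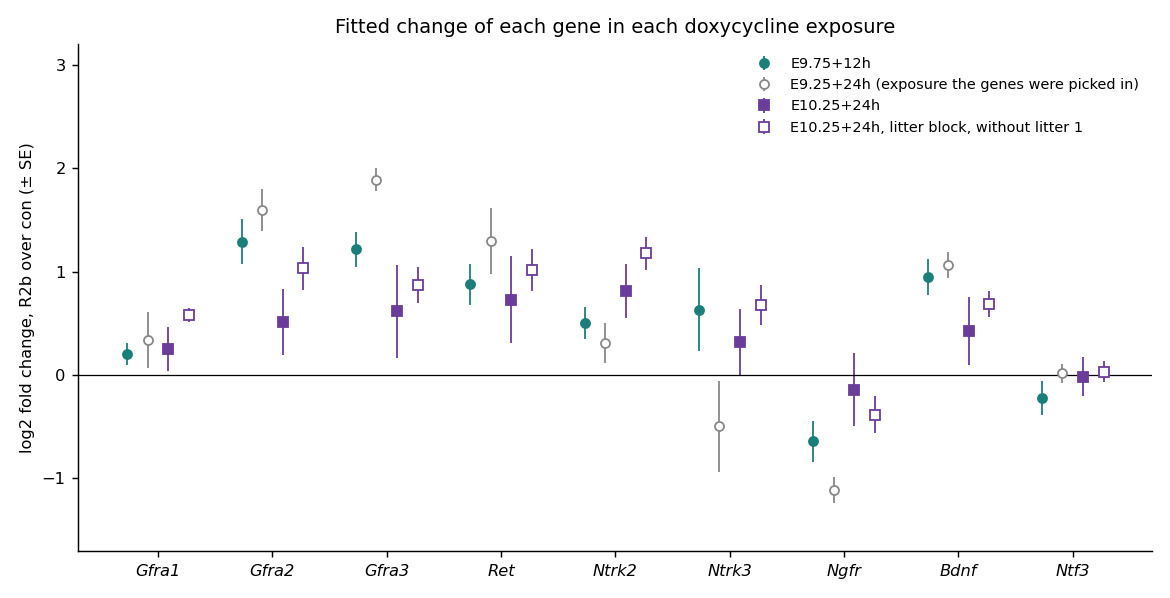
Fitted log2 fold change of R2b over con for each gene, with bars of ±1 SE. Open grey circles are the exposure the genes were chosen in, and their values carry no test. Gfra2, Gfra3, Ret and Bdnf are above 0 and Ngfr is below 0 in every series. Both E10.25+24h series share libraries. None of the genes passed there with all litters, and the Ngfr bar crosses 0 (-0.14, SE 0.35). The E10.25+24h bars shorten once litter 1 is left out with litter as a block.

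In the later exposure, E10.25+24h, none of the 9 genes passed with all litters as labelled, where 0.00% of 15203 genes passed. By edgeR, 175 genes (1.15%) and 1 of the 9, Ntrk2, had an unadjusted p under 0.05, and DESeq2 called 0 genes. The log2 fold changes were 0.82 for Ntrk2, 0.73 for Ret, 0.62 for Gfra3, 0.51 for Gfra2, 0.42 for Bdnf, 0.32 for Ntrk3, 0.25 for Gfra1, -0.02 for Ntf3 and -0.14 for Ngfr, each with FDR 0.9999. No gene of the 9 had groups apart.

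The litters differed. Gfra3 was at 12.6, 13.6, 8.64 and 9.11 CPM in libraries labelled con and 6.10, 33.8, 11.1 and 16.3 CPM in those labelled R2b. The library labelled R2b was the lower one in litter 1, by 1.04 on the log2 scale, and the higher one in litters 2, 3 and 4, by 1.30, 0.36 and 0.83. Gfra2 was at 12.9, 4.53, 6.63 and 6.12 CPM in libraries labelled con and 7.74, 13.4, 9.08 and 12.8 CPM in those labelled R2b. Its highest library labelled con was litter 1, and it exceeded the libraries labelled R2b of litters 1, 3 and 4.

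Ret was at 7.50, 6.61, 4.22 and 4.42 CPM in libraries labelled con and 4.62, 18.4, 5.67 and 9.07 CPM in those labelled R2b. Bdnf was at 23.6, 22.7, 15.0 and 15.3 CPM in libraries labelled con and 14.5, 44.3, 18.6 and 24.9 CPM in those labelled R2b. For both, the library labelled R2b of litter 2 was well above all others and that of litter 1 was the lowest labelled R2b. Gfra1 was at 399, 194, 212 and 235 CPM in libraries labelled con and 285, 325, 288 and 333 CPM in those labelled R2b. The overlap of its groups came from litter 1 alone.

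Ntrk2 was at 28.5, 19.0, 19.95 and 15.9 CPM in libraries labelled con and 21.8, 46.5, 31.3 and 46.4 CPM in those labelled R2b, with litter 1 again the only one in which the library labelled R2b was the lower. Ngfr was at 9.61, 38.6, 28.4 and 28.2 CPM in libraries labelled con and 21.5, 21.6, 19.4 and 31.5 CPM in those labelled R2b. The lowest of all 8 Ngfr values was the library labelled con of litter 1, which carried 679 CPM of Ighg1. The library labelled con of litter 3 also carried decoy reads, at 201 CPM of Ighg1, and had 28.4 CPM of Ngfr. For Ngfr, the library labelled R2b was the higher one in litters 1 and 4 (log2 differences 1.16 and 0.16). It was the lower one in litters 2 and 3 (-0.83 and -0.55). Ntrk3 stayed between 1.93 and 5.37 CPM and Ntf3 between 11.9 and 21.1 CPM, with overlapping groups.

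Without litter 1 and with the litter as a block, 6 of the 9 genes rose in the libraries labelled R2b, where 4.04% of 15195 genes passed and 2.79% rose. They were Ntrk2 (log2 fold change 1.18, SE 0.163, FDR 0.0248), Gfra2 (1.03, SE 0.207, FDR 0.0467), Ret (1.02, SE 0.203, FDR 0.0465), Gfra3 (0.87, SE 0.173, FDR 0.0459), Bdnf (0.69, SE 0.127, FDR 0.0413) and Gfra1 (0.58, SE 0.066, FDR 0.0198). Of these, 5 had also risen at E9.75+12h; Gfra1 had not passed there. Ntrk3 (0.68, FDR 0.101), Ngfr (-0.38, FDR 0.253) and Ntf3 (0.03, FDR 0.872) did not pass. The groups of 4 genes, Gfra1, Gfra2, Ntrk2 and Ntrk3, were apart without litter 1, where those of 23.34% of all genes were.

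These calls rest on both choices. Without litter 1 but without the block, 0 of the 9 and 0 of all genes passed by edgeR. An unadjusted p under 0.05 was reached there by 6 of the 9, and by 2430 of all 15195 genes. With the block and all 4 litters, again 0 of the 9 passed. Litter 3, whose library labelled con also held decoy reads, was then left out together with litter 1. Only litters 2 and 4 remained, which the fit without litter 1 also used, so the outcome is no separate support. With the block the same 6 genes rose, by 1.44 for Ntrk2, 1.33 for Gfra2, 1.29 for Ret, 1.11 for Gfra3, 0.86 for Bdnf and 0.65 for Gfra1. There 5.77% of all genes passed and 3.70% rose. Without the block 0 of the 9 passed in these litters. Among the litters other than litter 1, litter 2 had the widest Gfra3 difference, and litters 3 and 4 were at 0.36 and 0.83 on the log2 scale. Without the block, with litter 2 left out and litter 1 (at -1.04) put back, Gfra3 was at 0.14 (FDR 0.9992). Summed neuroblast markers were 194 to 283 CPM in 3 libraries labelled R2b and 662 CPM in that of litter 4, against 200 to 264 CPM in con, and summed blood markers were 3501 CPM in the library labelled R2b of litter 3 against at most 419 CPM in the others. With the block, 0 of 12 neuroblast markers passed without litter 1 (8 at an unadjusted p under 0.05, median log2 fold change 0.97), and 3 rose without litters 1 and 3 (median 1.33). Of 6 tested neural crest and glia markers, 0 passed without litter 1 (2 at an unadjusted p under 0.05) and 2 rose without litters 1 and 3. In edgeR's test with the block and without litter 1, 3528 of all 15195 genes had an unadjusted p under 0.05. The part of these libraries and lists in the result was not tested.

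Whether the effect of the decoy differed between E10.25+24h and E9.75+12h was tested directly, as the difference of the log2 fold changes. The exposures differ at once in duration (24 h against 12 h), age at collection (E11.25 against E10.25) and library number prefix, which cannot be told apart. Litter 1 of E10.25+24h, where the decoy reads went against the labels, was kept as labelled. Of 15688 genes, 3.96% differed, and of the 9 none did (0 also by DESeq2, and 0 at an unadjusted p under 0.05). The lowest FDR was that of Gfra2, whose effect was lower by -0.76 at E10.25+24h (SE 0.412, FDR 0.288). Gfra3 differed by -0.58 (SE 0.486, FDR 0.516). This value was -0.23 without litter 1 of E10.25+24h, and -1.06 without litter 2 but with litter 1 kept (FDR 0.0830). The SEs of 0.236 to 0.608 for the 9 genes leave room for differences of that order in either direction.

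**Figure D4:**
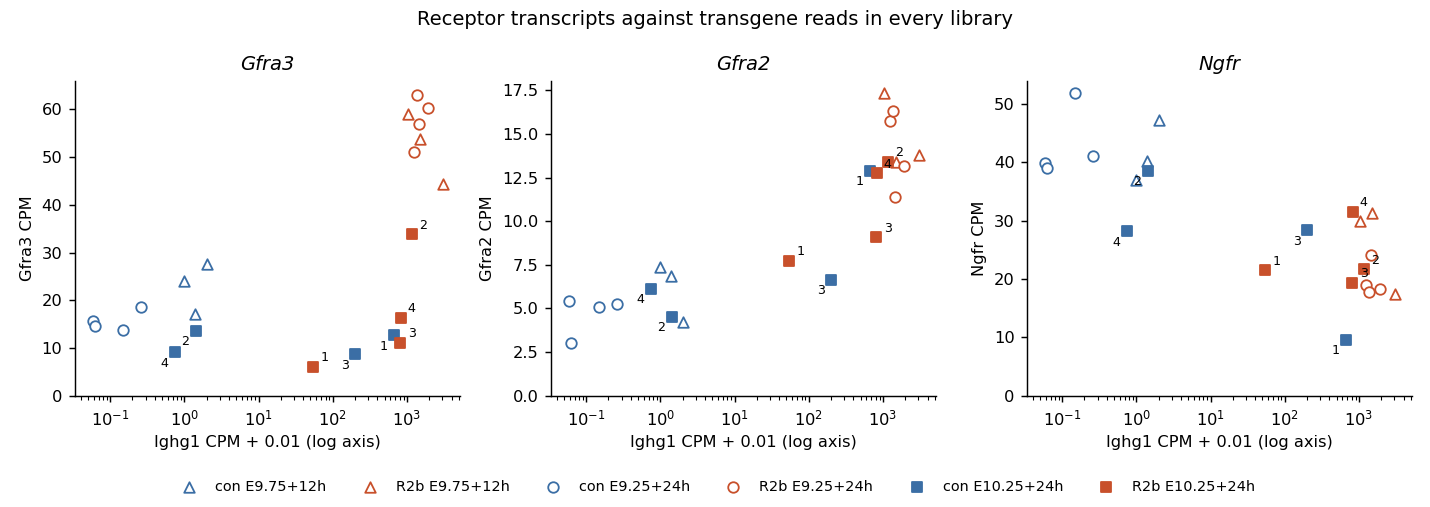
CPM of Gfra3, Gfra2 and Ngfr in all 22 libraries against Ighg1 CPM on a log axis (0.01 added), with exposures as symbols and litter numbers beside the E10.25+24h libraries. The library labelled con of litter 1 at E10.25+24h is the con point furthest to the right in Ighg1. It has 12.9 CPM of Gfra2, 9.61 CPM of Ngfr and 12.6 CPM of Gfra3. That Gfra3 value is below all libraries of the other exposures, con (13.7 CPM or more) as well as R2b (44.3 CPM or more). The libraries labelled R2b at E10.25+24h, at 6.10 to 33.8 CPM, are also below the R2b libraries of the other exposures.

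The other genes of these pathways were read from a list of 47 ligands, receptors and adaptors, of which 41 could be tested at E9.75+12h. There 9 passed, 7 up and 2 down, or 21.95%, beside 19.98% of all genes, so the list as a whole was near the background. With the litter as a block 4 passed, or 9.76%, beside 11.93% of all genes. Among 5 tested ligands, Nrtn, encoding neurturin, the ligand of the risen co-receptor Gfra2, went from 4.27 ± 0.508 to 7.18 ± 1.39 CPM (SD, n = 3; log2 fold change 0.77, FDR 0.0301). It did not pass with the block (FDR 0.0813) or when any of 7 of the 9 left-out litters and libraries was dropped, with FDR up to 0.242 without litter 1.

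Among 14 tested further receptors and binding partners, 3 rose and 1 fell (median log2 fold change 0.26). Sorcs1, a VPS10-domain sorting receptor, rose from 60.8 ± 0.410 to 89.3 ± 4.32 CPM (log2 fold change 0.58, FDR 0.00223) and lost its call only without litter 1 among the litters and libraries left out (FDR 0.0604). Sdc3, a heparan sulfate proteoglycan that binds GDNF, rose by 0.46 on the log2 scale (FDR 0.00998) and did not pass without litter 1 (FDR 0.120), litter 3 (FDR 0.0545) or the con library of litter 2 (FDR 0.0511). Gas1, a protein related to the GFRα family, was at 0.34 (FDR 0.0375), and Lrig1, a transmembrane inhibitor of receptor kinases, at -0.41 (FDR 0.0473); neither passed with the block, and they passed in only 3 and 1 of the 9 fits that left out a litter or a library.

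Among 22 tested adaptors, 3 rose and 1 fell, with a median log2 fold change of -0.01. Gab1, a docking protein of receptor kinases, rose from 208 ± 10.20 to 281 ± 11.7 CPM (log2 fold change 0.46, FDR 0.00518; FDR 0.129 without litter 1). Shc4 fell from 18.9 ± 2.37 to 11.4 ± 2.25 CPM (log2 fold change -0.70, FDR 0.0193), a call lost without litter 1 (FDR 0.129) and without the con library of litter 1 (FDR 0.0859) or 2 (FDR 0.0567). Kidins220, a scaffold of Trk receptors (0.32, FDR 0.0253), and Shc2 (0.38, FDR 0.0393) did not pass with the block. Each passed in 2 of the 9 fits that left out a litter or a library. At E10.25+24h none of 41 passed as labelled (1 at an unadjusted p under 0.05), and with the block and without litter 1 Sorcs1 (0.54, FDR 0.0240) and Gab1 (0.22, FDR 0.0474) rose while Lrig1 (-0.71, FDR 0.0380) and Grb10 (-0.32, FDR 0.0417) fell. These 4 were 9.76% of the 41 tested, beside 4.04% of all genes.

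Across the 22 libraries, centred within each exposure, the 5 genes whose log2 CPM was most like that of Gfra3 among 13832 genes were Gpr153 (Pearson r = 0.962), 2900011O08Rik (r = 0.949), Cited1 (r = 0.944), St6galnac5 (r = 0.942) and Adamts15 (r = 0.940). In the 12 h exposure Gpr153 averaged 52.1 ± 0.456 CPM in con libraries and 92.7 ± 6.59 CPM in R2b libraries (SD, n = 3), and it ranged from 35.3 to 92.8 CPM in the libraries labelled R2b at E10.25+24h. Without the libraries in which Gfra3 was picked, Gpr153 was again first (r = 0.971, 14 libraries), and it was the 1 gene shared by both sets of 5. Over all 22 libraries, Gfra3 itself had r = 0.826 with Ighg1, 0.880 with Fgfr2, which carries the decoy reads, and -0.834 with Etv5. These r values include the exposure in which Gfra3 was picked as higher in R2b, so that choice is built into them. These values share libraries, genotype groups and depth, and are given as descriptions.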

How the data were processed

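RNA from pooled otocyst epithelia was poly(A)-selected and sequenced as stranded libraries, per the labels' protocols. The deposited table holds raw counts per gene, whole numbers that the authors had not normalised. Novoalign 2.08.03 and mm10 are named in the submitters' processing notes; the counting tool and annotation are not given in the sources used here. Of 24 samples, 22 had a column by library number; 2 columns named no sample and were not used. Of 15736 genes, 15522 had a symbol in GENCODE M21.

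Genes were tested per exposure with edgeR 4.0.16 under R 4.3.3 (filterByExpr, TMM, glmQLFit, glmQLFTest, Benjamini-Hochberg FDR under 0.05 over all genes tested), as R2b against con without a litter block. SE is the absolute log2 fold change over the square root of F. The difference between exposures was fitted on all 22 libraries. The fits were tested on simulated data. Printed CPM used TMM factors over all 22 libraries. DESeq2 1.42.0, other scalings and filters, the litter block and left-out litters or libraries were alternatives. All 9 genes are described; of each pathway list, up to 5 called genes by FDR and the calls without litter 1 at E10.25+24h are named. For likeness, log2 CPM with a prior count of 2 and a mean of at least 1 CPM was used. The genes and lists were chosen with earlier results of these data known.

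The labels pair con and R2b by pregnant female. Deviations from the group means correlated within litters, across genes, with r of -0.126, -0.272 and -0.291 (exposure E9.75+12h), of 0.474, 0.577, 0.817 and 0.797 (exposure E9.25+24h) and of -0.146, 0.393, 0.328 and 0.280 (exposure E10.25+24h), so the values show the pairing only in part. No same-group pair of libraries was a duplicate: the chi-square over its degrees of freedom was 5.48 to 44.2 in 30 pairs. Reads carry no molecular identifiers.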

Additional observations from a re-analysis of the deposited data

Results flagged for a closer look

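In the 36 sets of 4 libraries examined (each of the 9 genes in each genotype of E9.25+24h and E10.25+24h), 4 had a library set apart from the others by more than Dixon's 95% critical value, where chance gives about 1 in 20. In the con libraries of E9.25+24h, Gfra2 was low in litter 3 at 3.03 CPM, and in litter 4 Ntrk3 was high at 3.09 CPM and Ngfr was high at 51.9 CPM. In the libraries labelled con of E10.25+24h, Ntf3 was high in litter 2 at 18.4 CPM. No test of a difference of effects between E10.25+24h and E9.75+12h passed for any of the 9 genes.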

How the results depend on the processing

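At E9.75+12h, the log2 fold changes of the 9 genes kept their sign in all settings run. The count of genes passing, 2973 of 14882, was 1775 with the litter as a replicate block, 434 to 4583 when a litter or library was left out, and with the block 267 without litter 1 and 1595 without litter 3. Of the 9 genes, 6 passed with the block, 2 to 5 when a litter or library was left out, and with the block 2 without litter 1 and 3 without litter 2. At E9.25+24h, 2335 genes passed, 6086 with the block, 322 to 2289 with a litter or library left out, and 4715, 4450, 4602 and 6161 with the block without litters 1, 2, 3 and 4. At E10.25+24h, 0 genes passed; 614 passed with the block without litter 1, 5 without litters 1 and 3, and 877 with the block without litters 1 and 3, of the 9 genes 6, 0 and 6. The difference of effects, 621 genes, gave 0 with the 2 exposures alone, 1043 with the block, 1333 by DESeq2, 0 and 2151 without litters 1 and 2 of E9.75+12h, 56, 29 and 141 without litters 1, 3 and 4 of E10.25+24h, and 0 without litters 1 and 3 of it; of the 9 genes 0 passed each time. The cause of these shifts was not tested.

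Signs turned only in values that had not passed. At E10.25+24h, with 1 litter or library left out, Ntrk3 ranged from -0.009 to 0.708 (0.755 without litters 1 and 3), Ngfr from -0.41 to 0.135 (0.244 and 0.156 with the block without litters 2 and 3) and Ntf3 from -0.23 to 0.082 (0.034 with the block without litter 1; 0.137 without litters 1 and 3, and 0.123 with the block). The difference of effects for Gfra1 was -0.086 without litter 1 of E9.75+12h and -0.08 and -0.023 without litters 2 and 4 of E10.25+24h. Without litter 3 of E9.75+12h it was 0.01 for Ret and 0.001 for Ntrk3, without litter 1 of E10.25+24h 0.263 and 0.077, and without litters 1 and 3 of E10.25+24h 0.46, 0.12 and, for Gfra2, 0.027. At about 1 to 5 CPM, Ntrk3 is the least deeply counted of the 9 genes.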
